A study of Mus musculus with 12 samples.

Results

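The Gadd45 genes Gadd45a, Gadd45b and Gadd45g are a small family of stress-induced genes, and their messenger RNA was followed here in mouse dendritic cells given lipopolysaccharide (LPS), the outer-membrane glycolipid that Gram-negative bacteria carry and that Tlr4 senses. The 3 genes were taken as every gene of the family with a probe on the array, matched by the RefSeq accession printed for each probe. They are 3 of 11095 genes tested and are read by 4 probes, 1 each for Gadd45a and Gadd45g and 2 for Gadd45b. The family was chosen by the pattern of these same log2 ratios over the 4 groups, Gadd45g lower at 1 and 6 h and higher at 24 h while Gadd45b was higher. Levels and differences of the 3 genes are therefore a description and carry no test.

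The cells were bone marrow-derived dendritic cells, antigen-presenting cells grown for 5 days from mouse femur and tibia marrow with the cytokines GM-CSF (10 ng/ml) and IL-4 (5 ng/ml), after B and T cells had been removed with antibodies and magnetic beads. Unstimulated cells (0 h) were compared with cells given LPS at 100 ng/ml for 1, 6 or 24 h, with 3 arrays per group and 12 in all. Each array set a Cy5-labelled sample against a Cy3-labelled Universal mouse reference, a pool of mouse RNA, so a level is the log2 ratio of sample to reference. The labels give the samples of a group as biological replicates of donors A, B and C and name no strain, age or sort, without saying whether equal letters mean equal animals. P-values of the other genes set a difference against the spread between these samples. All unstimulated arrays were on slide 1 and the main fit held no slide term, so slide differences can enter these comparisons. Unstimulated cells were taken at 0 h only, so LPS cannot be told apart from longer culture or handling.

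GADD45 proteins are small acidic proteins with no known enzyme activity, which act by binding others. They bind and activate the kinase MAP3K4 upstream of the stress kinases p38 and JNK, bind the replication clamp PCNA and the inhibitor p21, disturb the CDK1-cyclin B1 complex that drives entry into mitosis, and take part in active DNA demethylation with TDG. Gadd45a is a known target of p53. Gadd45b, a target of NF-kB and TGF-beta signalling, was first described as an early gene of myeloid differentiation, and Gadd45g as a cytokine-response gene of T cells.

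The 250 bases before the annotated start of each gene are shown because the 3 genes are close relatives whose transcripts followed different time courses here. The sequences are those of RefSeq on build GRCm38.p6. The Gadd45a gene lies on the minus strand at chr6:67035096-67037407 and its window at chr6:67037408-67037657. The Gadd45b gene lies on the plus strand at chr10:80930091-80932204 with its window at chr10:80929841-80930090. The Gadd45g gene lies on the plus strand at chr13:51846675-51848475 with its window at chr13:51846425-51846674. Capitals mark matches to the motifs named in the next paragraph, and the last base of each line adjoins the start.
Gadd45a: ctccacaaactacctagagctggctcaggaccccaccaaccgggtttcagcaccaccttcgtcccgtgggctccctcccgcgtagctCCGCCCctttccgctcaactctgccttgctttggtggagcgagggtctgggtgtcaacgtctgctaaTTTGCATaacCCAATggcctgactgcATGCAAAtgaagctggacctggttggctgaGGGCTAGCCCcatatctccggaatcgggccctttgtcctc
Gadd45b: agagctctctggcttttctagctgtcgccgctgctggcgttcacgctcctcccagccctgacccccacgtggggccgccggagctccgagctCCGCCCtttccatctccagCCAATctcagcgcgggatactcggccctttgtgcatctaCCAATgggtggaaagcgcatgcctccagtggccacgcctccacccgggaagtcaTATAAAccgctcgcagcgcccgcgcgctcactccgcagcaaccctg
Gadd45g: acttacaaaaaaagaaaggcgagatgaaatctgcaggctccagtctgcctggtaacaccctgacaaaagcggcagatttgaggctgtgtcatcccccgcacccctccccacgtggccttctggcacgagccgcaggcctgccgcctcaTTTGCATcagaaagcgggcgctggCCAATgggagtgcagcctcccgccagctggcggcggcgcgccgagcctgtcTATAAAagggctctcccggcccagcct

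The CCAAT box was found in all 3 windows, with 2 copies in Gadd45b and 1 each in Gadd45a and Gadd45g, against 33.8% of the 32851 promoter windows of the same length in the table. The GC box (GGGCGG) was found in Gadd45a and Gadd45b and not in Gadd45g, against 32.7% of all windows. A TATA box (TATAAA) began 46 bases before the start in Gadd45b and 27 bases before it in Gadd45g, and none was found in Gadd45a, against 12.4% of all windows. The octamer core (ATGCAAA), a motif added after the sequences had been read, occurred 2 times in Gadd45a and 1 time in Gadd45g and not in Gadd45b, against 4.12% of all windows. A p53 half-site, a decamer, was present in Gadd45a alone, 40 to 31 bases before the start, against 7.13% of all windows. Only the half-site was searched for, not a full p53 site. The AP-1 site (TGANTCA), the CRE core (TGACG) and the kappa-B consensus had no match in any of the 3 windows, against 6.75%, 17.8% and 3.9% of all windows. Both strands were searched, and no motif match overlapped another except that the p53 decamer, a palindrome, matched on both strands. GC content was 59.2% in Gadd45a, 65.2% in Gadd45b and 62% in Gadd45g. The longest run shared by Gadd45b and Gadd45g had 10 bases, CCCCACGTGG, and was held by 36 of all windows (0.11%). Gadd45a and Gadd45b also shared 10 bases, AGCTCCGCCC, held by 299 windows (0.91%), and Gadd45a and Gadd45g shared 8, CCTCCCGC, held by 1291 (3.93%). These are matches of letters only, and binding was not measured. Each shared run was picked as the longest of its pair before its share was counted. How long a run other pairs of windows share was not tested, so the shares do not show that the sharing is rare.

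In the sample channel, between 48.1 and 57.6% of an array's probes exceeded background clearly, and the number of arrays limits the precision. The 4 slides did not hold the groups evenly. All unstimulated arrays shared slide 1 with the donor A array of 1 h. Slide 2 carried donor B at 1 and 24 h. Donor C at 1 h was on slide 3 beside donors A and B at 6 h, and slide 4 carried donor C at 6 h beside donors A and C at 24 h. All 4 Gadd45 probes were well above background in both channels on all 12 arrays, and none was saturated. Of 12 markers of conventional dendritic cells, all 12 were tested and 11 were above background on every array. Their mean log2 ratio was 2.79 to 3.00 in unstimulated cells and 3.13 to 3.28 at 1 h. At 6 h it was 3.24 to 3.51, and at 24 h 3.13 to 3.38. Of the 12, 2, 5 and 4 were called higher and 0, 1 and 1 lower at 1, 6 and 24 h. Neutrophil markers had a mean log2 ratio of 2.74 to 3.18 in unstimulated cells, 1.79 to 2.22 at 1 h, 1.12 to 1.79 at 6 h and 0.96 to 1.68 at 24 h, and 0, 1 and 1 of the 9 tested were called higher and 4, 7 and 8 called lower at 1, 6 and 24 h, with Elane and Retnlg above background on no array. In these bulk samples, fewer cells of a type and less RNA per cell cannot be told apart, and the part of these markers in any result was not tested. Macrophage or monocyte markers were at 1.52 to 1.72 in unstimulated cells, 2.12 to 2.42 at 1 h, 1.84 to 1.88 at 6 h and 1.12 to 1.34 at 24 h (9 tested). Of the 9, 2, 2 and 2 were called higher and 0, 1 and 5 lower at 1, 6 and 24 h. Over all genes, 4.05%, 16.1% and 17.9% were called higher and 3.39%, 23.6% and 21.4% lower. B and T cells had been removed. Of 8 B cell markers, 4 passed the filter and 4 were above background on all 12 arrays. For 10 markers of T or NK cells these counts were 3 and 2. Ms4a1, Pax5, Ebf1, Cd3d, Ncr1, Gzma and Prf1 were above background on no array.

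Gadd45a was lowest in unstimulated cells and highest at 1 h, and lay between these levels at 6 and 24 h. Its log2 ratio was -1.25, -1.08 and -1.21 in unstimulated donors A, B and C. At 1 h it was 1.54, 2.47 and 1.16. At 6 h it was -0.03, 0.30 and -1.02, and at 24 h -0.18, 0.23 and -0.64. The 1 h arrays lay above all others, and the unstimulated arrays lay below all others, although donor C at 6 h was only 0.06 above the highest of them. The 6 h and 24 h groups overlapped.

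In group means, Gadd45a went from -1.18 ± 0.09 (SD, n = 3) in unstimulated cells to 1.73 ± 0.67 at 1 h, -0.25 ± 0.68 at 6 h and -0.20 ± 0.44 at 24 h. The 1 h level was 7.50-fold that of unstimulated cells (log2 difference 2.91, SE 0.35), the 30th largest difference of 11095 genes in the upward direction. The level at 6 h was 1.90-fold and at 24 h 1.98-fold that of unstimulated cells (log2 0.93 and 0.98, SE 0.35 each). In the upward direction these differences ranked 762 and 622. From 1 h to 6 h the log2 ratio was 1.98 lower (difference -1.98, SE 0.35), in 3 of 3 donor letters. Donor B gave the highest and donor C the lowest Gadd45a value at 1, 6 and 24 h alike.

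**Figure D1:**
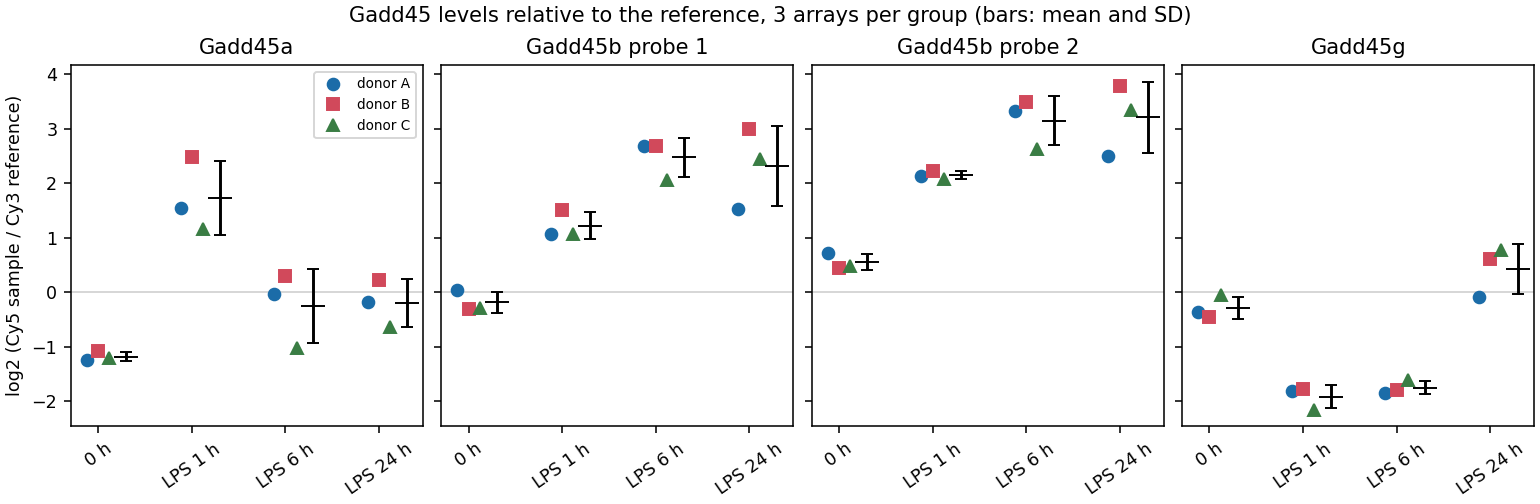
The plot shows the log2 ratio of sample (Cy5) to reference (Cy3) for the 4 Gadd45 probes, with 1 point per array, donors A, B and C as circles, squares and triangles, and the group mean with its SD beside the points. Gadd45a peaked at 1 h, with 3 arrays from 1.16 to 2.47, both Gadd45b probes were higher at 6 and 24 h, and Gadd45g was below -1.60 on all 6 arrays of 1 and 6 h and between -0.10 and 0.77 at 24 h.

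The reference channel differed on slide 2 for many probes, the Gadd45a probe among them. On that slide, with donor B at 1 and 24 h, the normalised Cy3 signal of the Gadd45a probe was 10.77 and 10.88 on the log2 scale, against 10.26 to 10.43 on the 10 other arrays, a 1.42-fold difference in a channel that should hold the same RNA everywhere. The ratios of donor B at 1 and 24 h are thus set against a higher reference signal. Of the 22621 probes well above background in Cy3 on all arrays, 18.7% were higher and 37.2% lower on slide 2 without overlap in the normalised signal, and 5.27% differed by more than the Gadd45a probe in either direction. Before normalisation slide 2 was brighter in Cy3, with a median signal above background of 43 and 47 intensity units against 21 to 29 on the other arrays. The raw Cy3 spot of Gadd45a was at 1887 and 1907 units on slide 2 and at 951 to 1099 elsewhere. The raw spots of the other Gadd45 probes were also higher on slide 2, at 2401.5 to 2563 against 1928.5 to 2316 for Gadd45b probe 1, 1446 to 1713 against 923.5 to 1269 for probe 2, and 9530 to 9731 against 7195 to 8248 for Gadd45g. Without the 1 h array of donor B the log2 difference at 1 h was 2.53, and without the 24 h array of donor B that at 24 h was 0.77. The normalised channel signals came from loess within arrays and quantile normalisation of the mean log2 intensity of both channels between arrays. The Cy5 signal made this way also draws on Cy3. For Gadd45a it differed by 3.09 at 1 h, 1.00 at 6 h and 1.21 at 24 h. Quantile-normalised Cy5 alone, made without Cy3, gave 3.16, 1.02 and 1.23. For Gadd45b the normalised Cy3 signal on slide 2 was 0.804-fold that of the other arrays at probe 1 and 1.00-fold at probe 2, and for Gadd45g it was 0.826-fold. The cause was not tested.

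**Figure D2:**
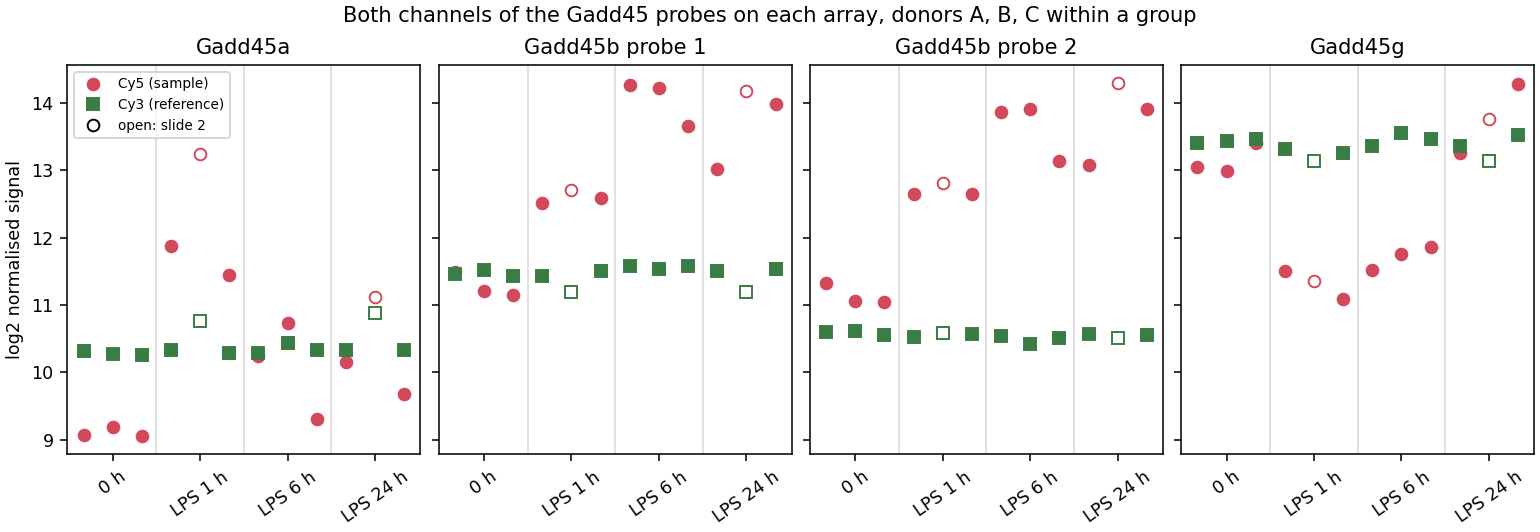
The plot shows the normalised log2 signal of both channels on each of the 12 arrays, in the order donor A, B, C within each group, with sample signals as circles, reference signals as squares and the arrays of slide 2 as open symbols. The reference signal of Gadd45a is 10.77 and 10.88 on slide 2 and 10.26 to 10.43 elsewhere, while the sample signals carry the differences between groups.

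Gadd45b was higher at all 3 times of LPS than before, and was higher at 6 and 24 h than at 1 h. With probe 1, the brighter of the 2, the log2 ratio was 0.04, -0.31 and -0.29 in unstimulated donors A, B and C. It was 1.08, 1.50 and 1.07 at 1 h, 2.68, 2.68 and 2.06 at 6 h, and 1.53, 2.99 and 2.44 at 24 h. No LPS array overlapped with the unstimulated arrays, and the 1 h and 6 h groups did not overlap. The lowest 24 h array, donor A, was 0.02 above the highest 1 h array, and the 6 h and 24 h groups overlapped.

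The means of probe 1 were -0.19 ± 0.19 (SD, n = 3), 1.22 ± 0.25, 2.48 ± 0.36 and 2.32 ± 0.74 in the 4 groups in order of time. Gadd45b was thus 2.65-fold the unstimulated level at 1 h, 6.33-fold at 6 h and 5.67-fold at 24 h (log2 differences 1.41, 2.66 and 2.50, SE 0.30 each). Among 11095 genes these differences ranked 139, 104 and 91 in the upward direction. Probe 2 gave 0.72, 0.45 and 0.48 in unstimulated cells, 2.13, 2.23 and 2.08 at 1 h, 3.32, 3.49 and 2.63 at 6 h, and 2.50, 3.78 and 3.34 at 24 h. Its differences were 3.01-fold, 6.04-fold and 6.31-fold (log2 1.59, 2.59 and 2.66, SE 0.28 each). The 2 probes of the gene therefore gave the same order of groups up to 6 h and put 6 and 24 h in opposite order, with a difference between these times of -0.16 and 0.06 log2, both smaller than its SE. Over the 12 arrays the probes correlated at r = 0.992, and probe 2 read 0.56 to 1.05 log2 above probe 1 on each array.

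Gadd45g was lower at 1 and 6 h and higher again at 24 h. Its log2 ratio was -0.35, -0.45 and -0.06 in unstimulated donors A, B and C. It was -1.81, -1.77 and -2.15 at 1 h and -1.84, -1.79 and -1.60 at 6 h. At 24 h it was -0.10, 0.62 and 0.77. All 6 arrays of 1 and 6 h lay below all 6 arrays of the other groups, and the 1 h and 6 h groups overlapped. The 24 h and unstimulated groups also overlapped, since donor A at 24 h (-0.10) was below unstimulated donor C (-0.06).

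The group means of Gadd45g were -0.29 ± 0.20 (SD, n = 3), -1.91 ± 0.21, -1.75 ± 0.13 and 0.43 ± 0.46 in order of time. The level at 1 h was 3.09-fold lower than in unstimulated cells (log2 difference -1.63, SE 0.20), the 5th lowest difference of 11095 genes. At 6 h it was 2.75-fold lower (-1.46, SE 0.20), the 241st lowest. At 24 h it was 1.64-fold higher than in unstimulated cells (0.72, SE 0.20), the 1016th largest upward difference. Gadd45g was higher in 3 of 3 donor letters, by 0.26 for A, 1.06 for B and 0.83 for C. The mean difference at 24 h was 0.47 with median centring and 0.48 in the quantile-normalised sample channel alone. From 6 h to 24 h Gadd45g was 4.52-fold higher (log2 2.18, SE 0.20), the 9th largest upward difference of all genes between these times. Donor C had the lowest value at 1 h and the highest in each of the other groups. Of the 9 neutrophil markers tested, 4, 7 and 8 were called lower and 0, 1 and 1 higher at 1, 6 and 24 h, and their part in the Gadd45g values was not tested.

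At 1 h all 3 Gadd45 genes had groups that did not overlap with unstimulated cells, as did 30.7% of all genes (14.2% higher, as Gadd45a and Gadd45b, and 16.5% lower, as Gadd45g). At 6 h this again held for all 3, against 53.9% of all genes (22.8% higher and 31.1% lower). At 24 h it held for Gadd45a and Gadd45b, both higher, and not for Gadd45g, against 52.3% (25.5% higher and 26.8% lower). Between 1 h and 6 h Gadd45a was lower and Gadd45b higher without overlap, against 40.8% of all genes (24% lower and 16.8% higher). Between 6 h and 24 h only Gadd45g of the 3 genes had separate groups, higher at 24 h, against 35% of all genes (19.7% higher and 15.3% lower). Between 1 h and 24 h all 3 were separate, Gadd45b and Gadd45g higher and Gadd45a lower, against 39% (18.2% higher and 20.8% lower). The choice of the members used these values, and nothing is read from the shares. Over the 12 arrays Gadd45a and Gadd45b (probe 1) correlated at r = 0.279, Gadd45a and Gadd45g at r = -0.548 and Gadd45b and Gadd45g at r = -0.07, given as a description of arrays that share slides and reference.

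Wherever a slide held more than 1 group, its differences had the signs of the differences between group means. The same arrays make up both, with 1 to 3 arrays on a side, so this is no separate support. On slide 1, the 1 h array of donor A against the 3 unstimulated arrays gave log2 differences of 2.72 for Gadd45a, 1.26 and 1.57 for the Gadd45b probes and -1.53 for Gadd45g. On slide 3, 6 h against 1 h gave -1.03 for Gadd45a, 1.61 and 1.32 for Gadd45b and 0.34 for Gadd45g. On slide 2, 24 h against 1 h gave -2.25 for Gadd45a, 1.48 and 1.56 for Gadd45b and 2.39 for Gadd45g. On slide 4, 24 h against 6 h gave 0.61 for Gadd45a, -0.08 and 0.29 for Gadd45b and 1.94 for Gadd45g. With slide as a block, the differences from unstimulated cells at 1, 6 and 24 h were 2.72, 1.14 and 1.20 for Gadd45a, 1.26, 2.86 and 2.76 for Gadd45b probe 1, and -1.53, -1.16 and 0.82 for Gadd45g. No slide held unstimulated cells beside 6 or 24 h, so the block reaches those times through the 1 h arrays.

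The genes whose profile over the 12 arrays was most like each member were named by Pearson correlation among 11092 other genes, as a description. Most like Gadd45a were Flrt3 (r = 0.964), Itpkc (0.964), Fgd6 (0.959), Ppp1r15a (0.947) and Slc25a25 (0.942), and 30 genes exceeded 0.9. Ppp1r15a is itself a stress gene, known as GADD34 from the same growth-arrest and DNA-damage screen but unrelated in sequence, and Itpkc is an inositol trisphosphate kinase. Most like Gadd45b were Slamf7 (r = 0.986), Traf1 (0.986), Tnfrsf1b (0.984), Nfkbib (0.981) and Ebi3 (0.981), and 198 genes exceeded 0.9. Tnfrsf1b is the type 2 TNF receptor, Traf1 an adaptor of such receptors, Nfkbib an inhibitor of NF-kB and Ebi3 a cytokine subunit of the IL-12 family. Most like Gadd45g were Ralgps2 (r = 0.959), Rab40c (0.951), Zfp954 (0.936), Uspl1 (0.935) and 4833420G17Rik (0.931), and 12 genes exceeded 0.9. These 5 genes moved little, between -0.43 and 0.28 log2 at any time, while Gadd45g moved between -1.63 and 0.72.

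**Figure D3:**
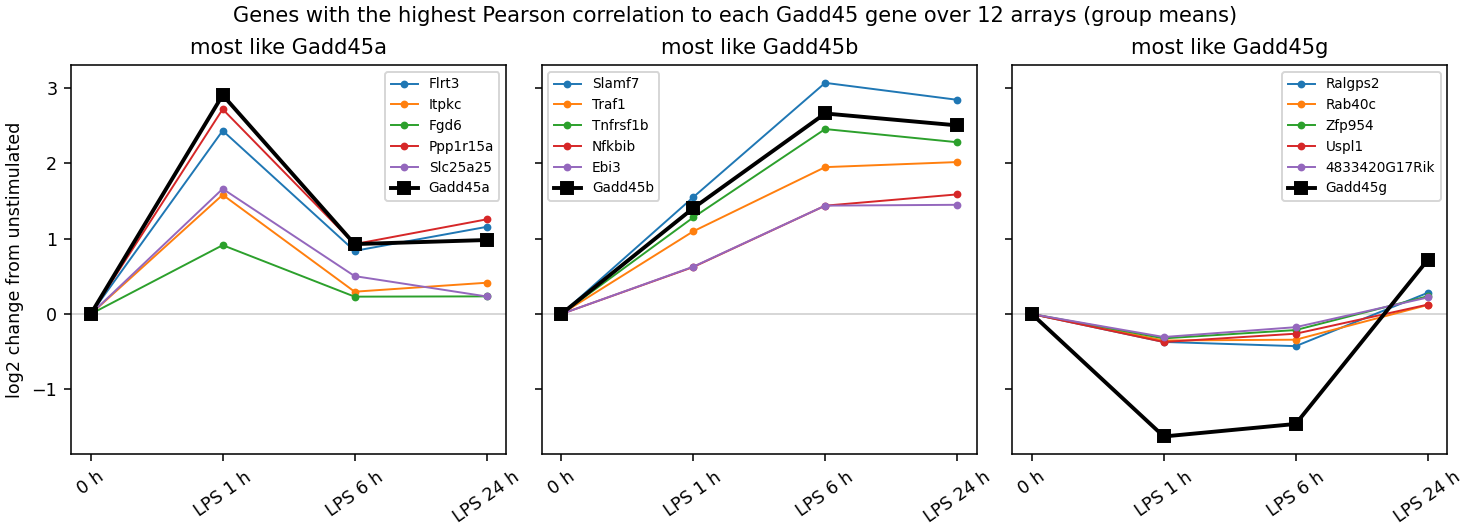
The plot shows the log2 change of group means from unstimulated cells at 0, 1, 6 and 24 h for each Gadd45 gene (black squares) and the 5 genes with the highest Pearson correlation to it over 12 arrays. The 5 genes beside Gadd45a peak at 1 h, those beside Gadd45b stay high at 6 and 24 h, and those beside Gadd45g follow its shape at a fraction of its size, with -0.43 as their lowest value against -1.63. The genes were picked for this likeness on the same arrays, so their shapes follow from the choice.

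Genes that work with the GADD45 proteins were described through 8 fixed lists with 147 of 165 genes tested, using limma with Benjamini-Hochberg adjustment over all 11095 genes. Of the 147, 24 rose and 6 fell at 1 h, 38 rose and 44 fell at 6 h, and 40 rose and 40 fell at 24 h. Over all genes, 7.44%, 39.6% and 39.4% were called at these times, 449 higher (4.05%) and 376 lower (3.39%) at 1 h, 1783 (16.1%) and 2613 (23.6%) at 6 h, and 1990 (17.9%) and 2377 (21.4%) at 24 h. The median log2 change of the 147 genes was 0.04, -0.07 and 0.10 (-0.14, 0.02 and -0.03 with median centring, and -0.06 at 1 h in the sample channel alone), against 0.02, -0.04 and 0.02 over all genes. Centring each array on its median without loess moved the all-gene median to -0.12, 0.05 and -0.11 and the calls to 179 higher and 46 lower, 1358 and 659, and 832 and 1503, and the sample channel alone gave 284 and 428 at 1 h. The slide block called 13 of the 147 higher and 1 lower at 1 h, 28 and 17 at 6 h, and 21 and 21 at 24 h. Without both arrays of slide 2, the genes called at 1 h were 3 of the integrated stress response, 3 of the regulators and 0 of the G2/M and of the demethylation list, against 6, 5, 2 and 1.

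Of the direct partners of GADD45 proteins, 8 of 15 were called lower at 6 h and 8 at 24 h, and the p21 gene was called higher at all 3 times. Among all genes, 23.6% and 21.4% were called lower at 6 and 24 h. Of 15 tested, 1 rose and 0 fell at 1 h, 1 rose and 8 fell at 6 h, and 1 rose and 8 fell at 24 h, with medians of -0.17, -0.82 and -0.48. The one that rose was Cdkn1a, which encodes p21, an inhibitor of cyclin-dependent kinases, by 0.90, 1.18 and 1.26 log2 (SE 0.16, limma adjusted p = 0.00487, 0.000119 and 7.75e-05). Map3k4, the kinase that GADD45 proteins activate, fell at 6 h (-1.12, SE 0.28, adjusted p = 0.00612) and was at -0.15 at 1 h and -0.23 at 24 h, neither called. Mapk14, which encodes p38 alpha, fell by 1.42 at 6 h and by 0.83 at 24 h (adjusted p = 2.9e-05 and 0.00147).

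Among partners in replication and mitosis, Pcna fell at 6 and 24 h (-0.96 and -1.50, adjusted p = 0.0025 and 0.000124 by limma). Cdk1, the mitotic kinase, fell by 1.00 and 1.42 (adjusted p = 0.017 and 0.00225), as did its cyclins Ccnb1 (-2.24 and -3.02) and Ccnb2 (-2.30 and -3.11). Gadd45gip1, whose protein binds GADD45 proteins and is also a part of the mitochondrial ribosome, fell at 6 h (-0.82, adjusted p = 0.00437) and was at -0.48 at 24 h (adjusted p = 0.063). Under the slide block, 0 of the 15 were called at 1 h, where Cdkn1a had an adjusted p of 0.163, 1 rose and 3 fell at 6 h, and 1 rose and 5 fell at 24 h. Map3k4 (adjusted p = 0.0608) and Gadd45gip1 (0.291) were among those lost at 6 h.

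**Figure D4:**
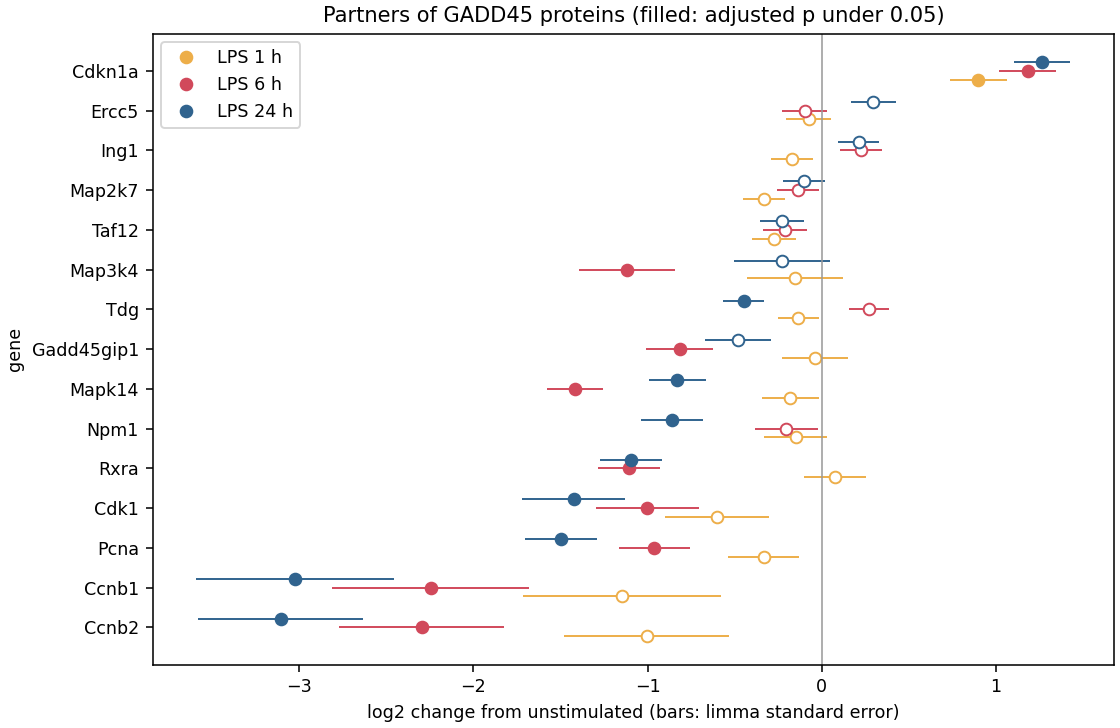
The plot shows the log2 change from unstimulated cells at 1, 6 and 24 h of LPS for 15 genes whose proteins bind GADD45 proteins, with the limma standard error as bars and filled points at an adjusted p under 0.05. Cdkn1a is the only gene called higher, at 0.90, 1.18 and 1.26, and Ccnb1 and Ccnb2 reach -3.02 and -3.11 at 24 h.

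The G2/M genes, which include the CDK1-cyclin B complex that GADD45 proteins inhibit, were called lower at 6 and 24 h with 1 exception at each time. Cdk1, Ccnb1 and Ccnb2 stand on this list and on that of the partners. Of 17 tested, 0 rose and 2 fell at 1 h, the checkpoint kinases Chek1 (-0.50) and Chek2 (-0.38), and 0 rose and 16 fell at both 6 and 24 h, with medians of -0.67, -1.24 and -1.75. Among all genes, 3.39%, 23.6% and 21.4% were called lower at 1, 6 and 24 h. Cdc20, an activator of the anaphase-promoting complex, fell by 2.79 and 3.09 at 6 and 24 h (limma adjusted p = 0.000408 and 0.000206), and Ccna2, cyclin A2, was at -2.30 at 6 h. The mean log2 ratio of the 17 genes was -0.80 to -0.66 in unstimulated cells, -2.07 to -0.99 at 1 h, -2.61 to -1.55 at 6 h and -2.62 to -2.26 at 24 h. A slide block called 0, 8 and 13 lower, and with donor letter as a replicate block 7 fell at 1 h. Progenitor markers, 5 tested, had a mean log2 ratio of -0.82 to -0.55 in unstimulated cells, -1.04 to -0.92 at 1 h, -0.98 to -0.77 at 6 h and -0.88 to -0.77 at 24 h, so the 1 h arrays lay below the unstimulated ones. Their part in the fall of the mitotic genes was not tested.

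The p38 and JNK pathway below MAP3K4 held genes called in both directions, as did all genes tested. Over all genes, 7.44%, 39.6% and 39.4% were called at 1, 6 and 24 h. Of 17 tested, 2 rose and 1 fell at 1 h, 1 rose and 6 fell at 6 h, and 2 rose and 3 fell at 24 h, with medians of -0.03, -0.09 and -0.05. These medians were 0.03, -0.28 and -0.03 with slide as a block, -0.17, -0.03 and -0.16 with median centring, and 0.02 at 1 h and 0.01 at 24 h without both arrays of slide 2. Over all genes the medians were -0.12, 0.05 and -0.11 with median centring. Mapkapk2, the p38-activated kinase that stabilises cytokine transcripts, rose by 0.91, 1.81 and 1.14 at the 3 times (limma adjusted p = 0.00797, 8.26e-06 and 0.000294). Jun, a target of JNK, rose by 0.81 at 1 h and was lower at 6 h (-0.57) and 24 h (-0.82). Tab1, which activates TAK1 and p38 alpha, was at -0.60 at 1 h. Mapk11, p38 beta, rose by 0.43 at 24 h, and Map2k6, a kinase of p38, was at -0.57. Under the slide block, 0 genes were called at 1 h, and Mapkapk2 rose and Mapk14 fell at both 6 and 24 h.

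The p53 targets, a group to which Gadd45a itself belongs by known regulation, included genes with large changes at 1 h. Of 30 tested, 7 rose and 2 fell at 1 h, 7 rose and 6 fell at 6 h, and 10 rose and 2 fell at 24 h, with medians of 0.09, -0.03 and 0.31, which were -0.06, 0.06 and 0.10 with median centring and 0.03, 0.07 and 0.29 with slide as a block. The all-gene medians were -0.12, 0.05 and -0.11 with median centring and 0.014, -0.025 and 0.003 with slide as a block. The share of all genes called was 7.44%, 39.6% and 39.4% at the 3 times. Gdf15, a stress cytokine, rose by 3.49 at 1 h (limma adjusted p = 0.000187), Plk2, a polo-like kinase, by 2.95, 2.31 and 1.81, and Btg2, an antiproliferative gene, by 2.01 at 1 h (1.43e-06). Fas, the death receptor, rose by 1.87 at 6 h and 1.73 at 24 h. Mdm2, the p53 ligase, rose by 1.24 and 1.59 at those times (adjusted p = 0.00161 and 0.000305), with 0.488 and 0.0777 under a slide block. The 2 that fell at 1 h were Sesn1 (-0.69) and Sertad1 (-0.85), and at 24 h Sesn1 (-0.60) and Ckap2 (-1.03). Slide as a block gave 5 higher and 1 lower at 1 h, 3 and 2 at 6 h, and 2 and 2 at 24 h. Trp53 itself, among the regulators, was not called at any time.

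Stress-response genes from the same growth-arrest and DNA-damage screens stand in the integrated stress response list. Of 27 tested, 6 rose and 0 fell at 1 h, 9 rose and 5 fell at 6 h, and 10 rose and 5 fell at 24 h, with medians of 0.40, 0.33 and 0.33. The share of all genes called was 7.44%, 39.6% and 39.4% at these times. Ppp1r15a (GADD34), the phosphatase subunit that restores translation, rose by 2.72 at 1 h, 0.93 at 6 h and 1.26 at 24 h (limma adjusted p = 8.28e-05, 0.0224 and 0.00424). Ddit3 (GADD153, also called CHOP), a transcription factor of stress-induced death, was at 0.56 and 0.90 at 1 and 6 h (adjusted p = 0.354 and 0.0576) and rose by 1.66 at 24 h (0.00237). Nupr1, a stress-induced chromatin protein, rose by 2.49, 3.24 and 3.05, and Atf3, a stress transcription factor, by 1.46 at 1 h and 1.66 at 24 h. Eif2ak2, the double-stranded RNA sensor PKR, rose by 1.86 at 6 h. Ddit4, an mTOR inhibitor, fell by 2.17 at 6 h, when Hyou1, Herpud1, Eif2ak3 and Eif2ak4 also fell, by 0.38 to 0.79. At 24 h the 5 that fell were Psat1, Hyou1, Herpud1, Sdf2l1 and Eif2ak3, by 0.40 to 1.09. The slide block called 3 higher and 0 lower, 8 and 1, and 6 and 1, and the donor block gave 9 higher and 1 lower at 1 h.

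NF-kB survival genes, a programme to which Gadd45b belongs by known regulation, were called in the upward direction alone. Of 16 tested, 7 rose at 1 h, 14 at 6 h and 14 at 24 h, and 0 fell at any time, with medians of 0.72, 1.25 and 1.06. Among all genes, 4.05%, 16.1% and 17.9% were called higher at these times. Tnfaip3, which encodes the NF-kB inhibitor A20, rose by 3.85 at 1 h and 2.34 at 6 h (limma adjusted p = 1.68e-05 and 0.000174), and Nfkbia, I-kappa-B alpha, by 3.24, 2.28 and 2.23. Cflar, a caspase-8 inhibitor, rose by 2.08 at 1 h. Fth1, ferritin heavy chain, rose by 2.30 at 6 h and 4.06 at 24 h (adjusted p = 4.04e-06 and 7.32e-08), and Sod2, mitochondrial superoxide dismutase, by 2.31 at 24 h. Of the 16, 3, 13 and 10 rose under a slide block.

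Transcription factors reported to regulate Gadd45 genes moved in both directions from 6 h on, as did all genes tested. Among all genes, 16.1% were called higher and 23.6% lower at 6 h, and 17.9% and 21.4% at 24 h. Of 22 tested, 5 rose and 0 fell at 1 h, 6 rose and 4 fell at 6 h, and 7 rose and 5 fell at 24 h, with medians of 0.19, 0.07 and 0.12, with -0.02 at 24 h under median centring and -0.11 at 6 h with slide as a block. The all-gene median was -0.11 at 24 h under median centring and -0.025 at 6 h with slide as a block. Egr1, an immediate early factor, rose by 3.81 at 1 h (limma adjusted p = 1.03e-06) and was at -0.57 and -0.49 later. Junb rose by 2.12 at 1 h, beside Jun (0.81), Rela (0.76) and Atf4 (0.56). Stat3, the factor downstream of IL-6 and IL-10 receptors, rose by 1.08 and 1.12 at 6 and 24 h, Rela by 0.98 and Nfkb1 by 0.90 at 6 h, and Junb by 1.47 at 24 h. Myc, described as a repressor of Gadd45a, fell by 1.91 at 24 h (adjusted p = 6.62e-05), when Smad2, Cebpa, Jun and Jund also fell. Pou2f1, which binds the octamer motif and is named after its values were seen, rose by 0.74 at 6 h (adjusted p = 0.00323). The slide block called 2 higher and 0 lower at 1 h, 4 and 0 at 6 h, and 3 and 1 at 24 h.

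Genes of DNA demethylation and excision repair, the pathway in which Gadd45a acts with TDG, had medians below those of all genes. The all-gene medians were 0.02, -0.04 and 0.02 at 1, 6 and 24 h. With median centring the list medians were -0.31, -0.04 and -0.31, against -0.12, 0.05 and -0.11 over all genes. With slide as a block they were -0.10, -0.16 and -0.24, against 0.014, -0.025 and 0.003. Of 20 tested, 0 rose and 1 fell at 1 h, 3 rose and 5 fell at 6 h, and 1 rose and 7 fell at 24 h, with medians of -0.13, -0.13 and -0.15. The share of all genes called was 7.44%, 39.6% and 39.4% at these times. Called higher were 4.05%, 16.1% and 17.9% of all genes, and called lower 3.39%, 23.6% and 21.4%. Uhrf1, which brings the maintenance methyltransferase to replicated DNA, fell by 1.37, 2.01 and 1.71 (limma adjusted p = 0.0283, 0.000471 and 0.0015). Parp1, a sensor of DNA breaks, fell by 1.28 and Dnmt1, the maintenance methyltransferase, by 1.05 at 6 h, beside Apex1 (-0.72) and Xrcc1 (-0.36). The 3 that rose at 6 h were Tet2 (0.67), Mbd4 (0.55) and Polb (0.45), and Polb alone rose at 24 h (0.39). Apex1, the abasic site endonuclease, was at -1.30 and the de novo methyltransferase Dnmt3a at -0.88 at 24 h, and Tdg fell by 0.45. In the fit with a slide block, 0 of the 20 were called at 1 h, 1 higher and 3 lower at 6 h, and 0 higher and 1 lower at 24 h.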

How the data were processed

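RNA of 12 samples was measured on Agilent 2-colour arrays, with the sample in Cy5 and the reference in Cy3. The scanner output deposited for each array, from Agilent Feature Extraction 10.7.3.1 per the file headers, lists 45018 spots with unnormalized median intensity for the spot and its surrounding background. The scanner software's log10 ratio stands in the deposited files and was not used. The deposited value table holds a log2 ratio per probe, made by the authors with limma per the submitters' processing notes, version and steps not given in the sources used here. It was an alternative, with r of at least 0.999 on every array.

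From the intensities, R 4.3.3 and limma 3.58.1 gave normexp background correction (offset 50) and loess within arrays (span 0.3), with 1639 control spots at weight 0. Median spot and background signals were used, which the files hold. Local backgrounds marked as outliers were replaced by the array median, since spot minus background reached -50238 units on the 6 h array of donor B. This was chosen after seeing the files. Probes well above background in Cy5 on all arrays of a group were kept (21750 of 41174), and the brightest probe stood for a gene (11095 genes). Symbols came from RefSeq accessions.

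limma's lmFit took the 12 arrays together, each group with its own mean (residual degrees of freedom, 8), followed by eBayes and two-sided tests. Genes at an adjusted p under 0.05 were called. The script was tested on simulated data. Slide and donor letter as blocks, scaling, both channels, probe filters and leaving out arrays were alternatives. Donor pairing rests on letters alone. Same-letter arrays correlated, in deviations from group means, at a median r of 0.109 (-0.21 to 0.584, 18 pairs), and arrays of different letters at -0.01 (-0.53 to 0.41, 36 pairs).

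The members and lists were chosen with earlier results of these data known. Named were the Gadd45 probes, Map3k4, Pcna, Cdkn1a, Cdk1, Ccnb1 and Gadd45gip1, up to 3 called genes per list and time by absolute change, the 5 genes most like each member by Pearson correlation, and genes at counts of 5 or fewer.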

Additional observations from a re-analysis of the deposited data

How the results depend on the processing

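Of 152 values of the Gadd45 differences from unstimulated cells that an alternative could alter, 146 moved by less than the spread between replicates, 6 moved by more and 0 changed sign. Another 112 values could not move by construction. Leaving out 1 array of a group of 3, also for slide 2, cannot shift a difference by more than this spread. Those values were thus bound to fall among the 146 and say nothing about stability on this measure. Only the other alternatives could move a value by more. The 6 were Gadd45b probe 1 at 6 h (2.99) and Gadd45g at 1 h (-1.97) with median centring, Gadd45g at 1 h (-2.03) and 6 h (-1.69) in the sample channel alone (quantile normalised), and Gadd45b probe 2 at 24 h (3.15) and Gadd45g at 6 h (-1.16) with slide as a block. Counts of called genes changed more. Median centring gave 225, 2017 and 2335 genes at 1, 6 and 24 h and 17 and 54 list genes at 1 and 6 h, against 825, 4396 and 4367 and against 30, 82 and 80 (at 24 h). Slide as a block gave 225, 1956 and 1761 genes and 14, 45 and 42 list genes. Normexp with every deposited local background gave 243 and 2438 genes and 16 and 41 list genes at 1 and 6 h. Leaving out 1 array gave 338 to 1048 genes at 1 h, with 338 without unstimulated donor A, 356 without unstimulated donor B, 528 without donor A at 1 h and 402 without donor B at 1 h, and 474 without both arrays of slide 2, an alternative chosen after seeing the data. With median centring 0 and 8 G2/M genes were called lower at 1 and 6 h, 1 partner higher and 4 lower at 6 h, and 4 p53 targets higher and 1 lower at 1 h, 5 and 2 at 6 h, and 6 and 1 at 24 h. The causes were not tested. By Spearman correlation the 5 genes most like Gadd45a ranked 5 to 33, those most like Gadd45b 2.5 to 36 and those most like Gadd45g 1 to 22. With donor letter as a replicate block, 1128 genes were called at 1 h, and the Gadd45 differences kept their values because every letter occurs in every group, and the pairing is by letter only. At 3 arrays a group, precision is limited by the number of arrays, and all Gadd45 probes were well above background.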
